A study of Mus musculus with 24 samples.

Results

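The regions described here are 3202 stretches of open chromatin in mouse periosteal cells that opened modestly once an active form of YAP was induced. Among the sites listed as changed they are some of the most accessible, by a mean that includes the Dox samples. They were chosen from the authors' deposited table of 30509 ATAC-seq sites that differed between Dox and untreated YAPCA cells, of which 29805 lie on autosomes. A site was taken when its mean log2 read concentration over all 6 samples was at least 9.5 and when its Dox concentration exceeded its untreated concentration by more than 0 and at most 1 on the log2 scale. The members are 10.7% of the listed autosomal sites. Concentration and opening chose the members, so both are given below as descriptions, with no test. The same holds for the FDR, which comes from the same contrast.

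The cells were primary cultures from the periosteum, the sheath on the outer surface of bone. The Dox group consisted of YAPCA cells given 1 µM doxycycline, and its comparison group of YAPCA cells of the same genotype with no doxycycline and no vehicle. That genotype, on B6 by its labels, joins 3 alleles: the Cre line tg(CMV-Cre)1Cgn/J, the transgene tetO-YAPS127A, and the activator allele Gt(ROSA)26Sortm1(rtTA,EGFP)Nagy/J. CMV-Cre acts in most tissues and the activator rtTA is expressed from ROSA26 with EGFP, so both groups carry Cre, rtTA and the transgene, and the transgene is not limited to a cell type. Wild-type cells, labelled C57BL6, with and without Dox were used for 1 comparison. Each group had 3 samples per assay, labelled technical replicates, so p-values reflect no more than the scatter among such samples, which need not be biological. Neither the length of treatment nor the age of the mice is stated in the labels.

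YAP is a transcriptional co-activator that enters the nucleus when the Hippo kinases do not phosphorylate it, and the S127A change removes a serine through which those kinases hold it in the cytoplasm. It does not bind DNA itself and reaches enhancers and promoters mainly through TEAD transcription factors, which read the sequence CATTCC, often beside AP-1. ATAC-seq counts the insertions of a transposase into accessible DNA, so a site with a high concentration is one that many cells, or many copies of the genome, hold open.

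Member sites at promoters can be shown by their RefSeq sequence. The 5 promoter windows below lie wholly inside a member site, belong to genes whose RNA passed the test described further on, and were read from RefSeq (GRCm38.p6, the assembly of mm10) as 250 bases before to 50 bases after the gene's start, on the gene's strand. Capitals mark the TEAD sequence CATTCC, the AP-1 sequence TGANTCA, the NF-Y sequence CCAAT and the ETS sequence CCGGAAG on either strand, so that GGAATG and ATTGG are TEAD and NF-Y matches read from the other strand. NF-Y is a trimeric factor that binds CCAAT boxes of active promoters, and ETS factors bind many promoters of widely expressed genes.
Ankrd1 promoter, chr19:36119795-36120094, minus strand: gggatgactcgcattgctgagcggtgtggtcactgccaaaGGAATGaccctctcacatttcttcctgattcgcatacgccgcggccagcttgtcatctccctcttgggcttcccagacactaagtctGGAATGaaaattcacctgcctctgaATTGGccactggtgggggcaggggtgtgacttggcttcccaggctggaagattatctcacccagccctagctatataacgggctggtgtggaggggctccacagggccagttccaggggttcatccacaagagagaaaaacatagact
Ccn1 promoter, chr3:145649936-145650235, minus strand: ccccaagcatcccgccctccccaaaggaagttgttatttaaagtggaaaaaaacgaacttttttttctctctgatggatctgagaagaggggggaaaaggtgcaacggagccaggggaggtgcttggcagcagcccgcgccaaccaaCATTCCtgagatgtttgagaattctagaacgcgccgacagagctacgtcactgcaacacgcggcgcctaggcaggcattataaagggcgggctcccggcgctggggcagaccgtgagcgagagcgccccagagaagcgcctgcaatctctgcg
Ptchd4 promoter, chr17:42315697-42315996, plus strand: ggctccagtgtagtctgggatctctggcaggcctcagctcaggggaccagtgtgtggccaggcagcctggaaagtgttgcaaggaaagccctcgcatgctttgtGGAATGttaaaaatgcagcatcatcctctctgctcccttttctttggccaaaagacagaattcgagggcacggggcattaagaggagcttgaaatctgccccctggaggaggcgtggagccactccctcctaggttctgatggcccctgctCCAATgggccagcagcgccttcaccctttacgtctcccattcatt
Pim3 promoter, chr15:88861944-88862243, plus strand: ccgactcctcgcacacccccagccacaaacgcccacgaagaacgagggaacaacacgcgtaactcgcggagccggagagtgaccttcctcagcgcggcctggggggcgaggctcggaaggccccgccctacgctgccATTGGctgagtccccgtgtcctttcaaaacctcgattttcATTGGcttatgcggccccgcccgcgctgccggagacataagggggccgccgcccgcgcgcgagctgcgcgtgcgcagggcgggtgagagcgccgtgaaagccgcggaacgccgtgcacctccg
Lgr4 promoter, chr2:109917397-109917696, plus strand: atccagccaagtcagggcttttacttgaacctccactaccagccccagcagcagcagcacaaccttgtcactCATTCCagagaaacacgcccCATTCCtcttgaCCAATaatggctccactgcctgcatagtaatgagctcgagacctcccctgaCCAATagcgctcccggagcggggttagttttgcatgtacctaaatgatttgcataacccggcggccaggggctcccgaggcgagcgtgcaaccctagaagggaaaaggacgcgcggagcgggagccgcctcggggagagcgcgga

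Ankrd1, which encodes a stress-responsive ankyrin repeat protein and is a long-known YAP target, has 2 TEAD matches and 1 NF-Y match in its window. Ccn1, which encodes a secreted matricellular protein and is likewise a YAP target, has 1 TEAD match and no NF-Y match. Ptchd4, a gene of the Patched family, has 1 match of each kind. Pim3, which encodes a serine/threonine kinase, has 2 NF-Y matches and no TEAD match. Lgr4, which encodes a receptor for R-spondins, has 2 TEAD and 2 NF-Y matches. No window of the 5 holds the AP-1 or the ETS sequence. A match is a description of the letters and not a bound site. The 5 windows are examples, and their matches do not stand for the shares over all windows at members.

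The 578 RefSeq promoter windows of 525 protein-coding genes that overlap a member were rich in CCAAT boxes, GC boxes and ETS sequences. The NF-Y sequence CCAAT was found in 60.2% of them, against 38.1% of all 20085 autosomal windows. The ETS sequence CCGGAAG was found in 19.9% against 11.9%, and the SP/KLF sequence GGGCGG, the GC box, in 75.4% against 47%. The CTCF core AGGGGGC stood in 19.6% of windows at members against 13.1% of all, and the E-box CACGTG in 10.4% against 7.89%. TEAD and AP-1 sequences set these promoters apart far less. CATTCC stood in 16.1% against 13.4% and the longer ACATTCC, which contains it, in 4.84% against 3.43%, while TGANTCA stood in 5.36% against 7.06%. Among members with an FDR under 0.001 in the authors' deposited table this changed, with CATTCC in 30.6%, TGANTCA in 14.1%, CCAAT in 54.1% and CCGGAAG in 12.9% of windows. RUNX TGTGGT and the NFI sequence TGCCAA were in 10.7% and 11.6% of windows at members, against 14.8% and 13.1% of all, and the SRF CArG box in 1.38% against 1.43%. These shares are counts of letters on both strands with no test.

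Base composition moved with these shares. The windows at members had a median GC content of 64% and 23 CG dinucleotides, against 57% and 14 over all windows. The 419 windows at less accessible sites that also opened by at most 1 had a similar composition, with a median GC content of 65.3% and 24 CG dinucleotides. In those windows CCAAT stood in 33.4%, CCGGAAG in 10.5% and CATTCC in 20.3%. CCAAT and CCGGAAG were more frequent at members than in these windows, and CATTCC was less frequent. GGGCGG stood in 63.7% and AGGGGGC in 17.7% of these windows. Both shares lay nearer to those at members, 75.4% and 19.6%, than to those of all windows, 47% and 13.1%. CACGTG stood in 6.44% of these windows, below its share at members and in all windows. Only the medians of composition were close. The quartiles of CG dinucleotides were 17 and 30 at members, against 12 and 34 in these windows. The parts of base composition and of the genes' RNA level in these shares were not tested.

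**Figure D1:**
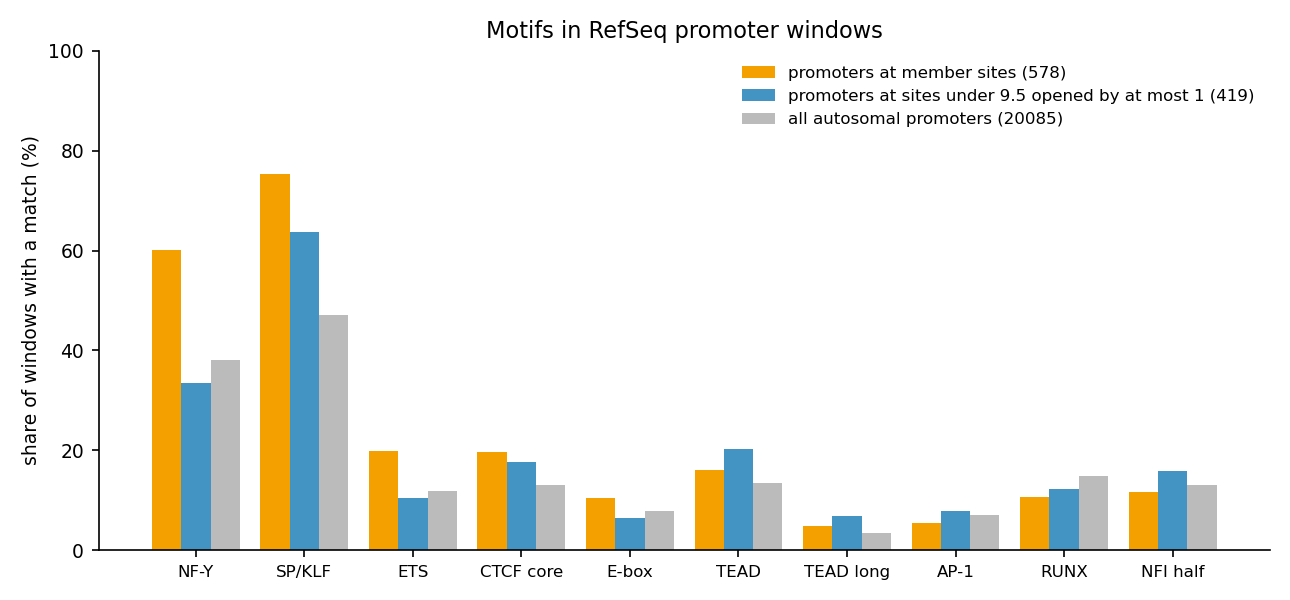
Share of 300-base RefSeq promoter windows (percent, vertical axis) that hold each motif, for windows at member sites, at sites with a concentration under 9.5 that opened by at most 1, and for all autosomal windows. NF-Y stands at 60.2% at member sites against 38.1% of all windows, and TEAD at 16.1% against 13.4%.

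Among the members' promoters, the letters changed with the size of the opening. TEAD matches were found in 12.4% of the 145 windows at sites that opened by at most 0.2, in 14.9% of the 350 windows at openings of 0.2 to 0.3, in 22.9% of the 70 windows at 0.3 to 0.4 and in 53.8% of the 13 windows above 0.4. The longer TEAD sequence stood in 4 of the 145 and in 4 of the 13. NF-Y matches ran the other way at the low end, at 75.2%, 55.7%, 52.9% and 53.8% of the same 4 classes. ETS matches were in 20%, 21.7%, 14.3% and 0% of them. The highest class had a median of 12 CG dinucleotides a window and the others 23 to 24, and with 13 windows its shares rest on 7 TEAD matches. In the windows at members, CCAAT matches had a median position of -88.5 relative to the gene's start (minus is before it), against -87.5 over all windows.

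Position relative to genes set the members apart from less accessible sites. Of the 3089 members with a known gene start on their chromosome, 555 (18%) came within 1000 bp of one, a share of 7.03% among members with an FDR under 0.001 in the authors' deposited table. Of the sites under 9.5 that opened by at most 1, 694 of 18884 (3.68%) did. Among the few sites of 9.5 or more that closed, 13 of 80 (16.2%) did, and among less accessible closing sites 9.81%. A further 12.5% of members lay between 1000 and 10000 bp, 29.9% between 10000 and 50000 bp and 39.6% beyond 50000 bp of the nearest known start, with a median distance of 31681 bp for members and 53460 bp for less accessible opening sites. Members overlapped the body of a protein-coding gene in 60.3% of cases, against 52.6%. Gene starts were known for 17492 of 21900 protein-coding genes.

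**Figure D2:**
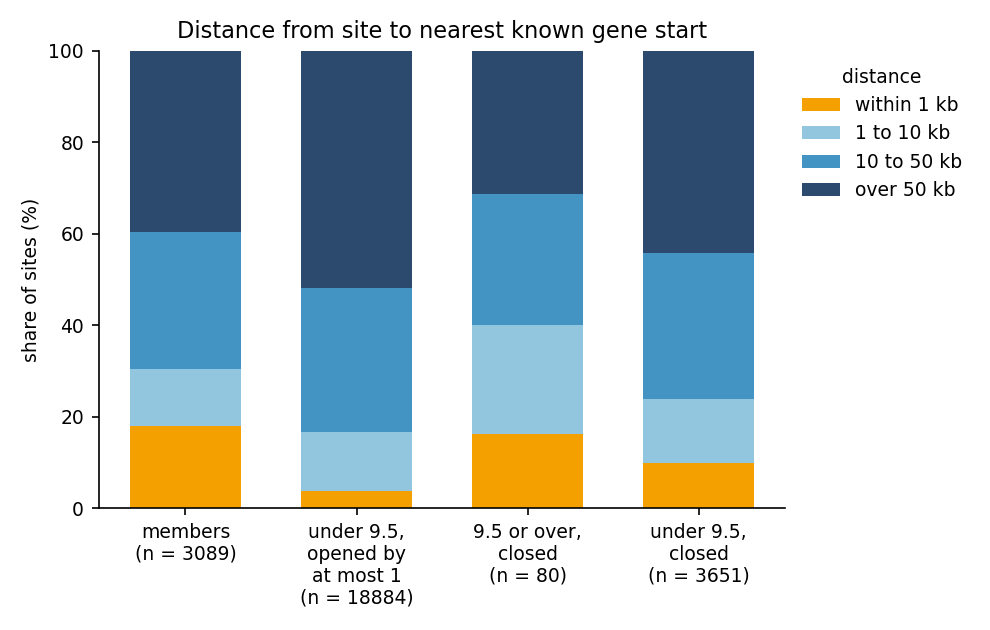
Share of sites (percent, vertical axis) by distance to the nearest known gene start, for members and for 3 other classes of listed autosomal sites, defined by concentration (9.5) and direction. Sites within 1 kb are 18% of members and 3.68% of the less accessible sites that opened by at most 1.

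Members were broad. Their median width in the authors' deposited table was 636 bp, with quartiles of 522 and 786 bp and a full range of 270 to 2249 bp, against a median of 340 bp for less accessible opening sites and 890 bp for closing sites of 9.5 or more. A concentration sums reads over a site, so width enters it. Per kb of width, the median log2 concentration of the authors' deposited table came to 10.75 at members and 9.08 at less accessible opening sites. In the same deposited table of the authors it came to 10.03 at the closing sites of 9.5 or more. The concentration that chose the members is part of this value, so their higher density than less accessible sites is a description only.

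The median gap from a member to the nearest other member was 101278 bp, a value that moved with the number of sites chosen. Of the members, 454 (14.2%) fell into 215 groups with gaps of at most 10000 bp. Only 2 groups held 4 or more sites. One runs over the gene Ccn1 at chr3:145645414-145653590 and covers 8177 bp with 4 sites of concentration 9.62 to 10.5 and opening 0.24 to 0.41 in the authors' deposited table. The other lies at Gtdc1, a gene for a glycosyltransferase-like protein, at chr2:44956111-44976897, with openings of 0.28 to 0.41 in that deposited table of the authors. The share of listed sites that are members ran from 7.93% on chromosome 14 to 13.2% on chromosome 11.

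Opening was the rule among accessible sites in this table. Of 3293 listed autosomal sites with a concentration of 9.5 or more, 3209 opened and 84 closed, so 97.4% opened, against 85.8% of less accessible sites and 87.1% of all listed autosomal sites. Only 7 of the 3209 opened by more than 1. The median opening of members in the authors' deposited table was 0.28, with medians of the group concentrations of 10.16 in Dox cells and 9.84 in untreated cells. On chromosome 3 a second deposited sheet carries the headings of the Dox and untreated groups exchanged for all 1932 sites, 182 of them members, and the values here follow the main sheet. The smallest opening listed was 0.13 and the largest 0.99. The table holds only sites with an FDR of at most 0.05, and small differences passed that limit only at high concentrations. Thus the lowest opening of the less accessible sites was 0.2. Sites that did not pass were not analysed here, so nothing can be said of accessible sites that stayed as they were.

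The choice of limits cuts through a continuous spread. At the lower limit, 33 sites of the authors' deposited table stand at a concentration of exactly 9.5 and 40 at 9.49. A site near Nuak2, which encodes a kinase of the AMPK family and is a YAP target, was just inside at 9.5 with an opening of 0.68 in the authors' deposited table. A site in the body of Edn1, the gene of endothelin-1, was just outside at 9.49 with an opening of 0.71 in the same deposited table of the authors. At the upper limit of opening, the members at 0.99 and 0.97 stood next to non-members at 1.02 and 1.06 in the authors' deposited table, and the site at 1.06 lies in the gene Snx30, which also has a member.

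**Figure D3:**
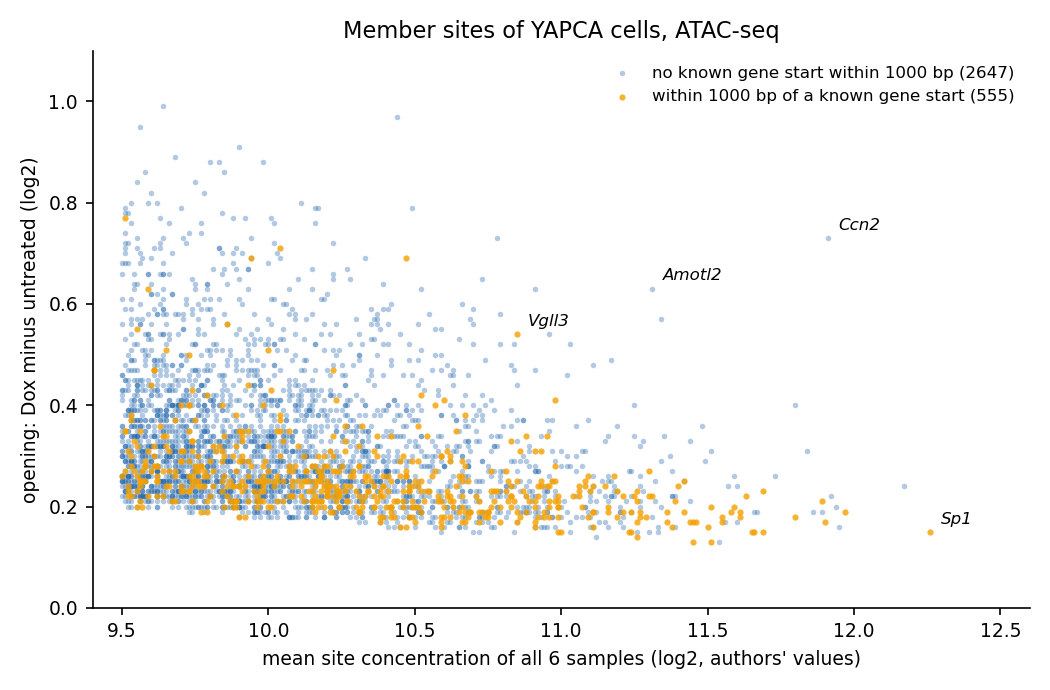
Each point is a member site, with its mean log2 concentration over 6 samples on the horizontal axis and its opening (Dox minus untreated, log2) on the vertical axis, both the authors' values. Sites at known gene starts crowd at small openings, and the Ccn2 site stands alone at a concentration of 11.91 with an opening of 0.73; Ccn2 has no known start in the table used, so its site is drawn among the others.

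The most accessible members barely opened. The 6 with the highest concentration opened by 0.15 to 0.24 in the authors' deposited table, and those at Sp1 and Khsrp cover a known gene start. The highest concentration belonged to a site over the start of Sp1, the gene of a GC-box transcription factor, at chr15:102405242-102406368, with 12.33 in Dox cells and 12.18 in untreated cells in the authors' deposited table. The next lay between Eef1g and Ahnak at chr19:8982642-8983768, with 12.29 in Dox cells and 12.05 in untreated cells in the authors' deposited table. A site over the start of Khsrp, which encodes an RNA-binding protein, had 12.06 in Dox cells and 11.87 in untreated cells by the same deposited table of the authors. The 3 smallest openings, all 0.13 in the authors' deposited table, lay within the genes Mrpl58, Leprot and Shoc2, the last 2 over a gene start.

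The members with the smallest FDR opened more. Apart from the site over Ccn2 they lay away from gene starts, as most members did. The smallest, 2.75e-50 in the authors' deposited table, was that of a site within Fhl2, a gene for a LIM-domain cofactor, with a concentration of 10.85 in Dox cells and 9.88 in untreated cells. The next, with an FDR of 2.65e-40, was the widest member, a 2249-bp site over Ccn2 at chr10:24595231-24597479, with 12.23 in Dox cells and 11.5 in untreated cells in the authors' deposited table. Ccn2 encodes a secreted matricellular protein and is a widely used YAP target. The 4 that follow in the authors' deposited table have openings of 0.79 to 0.99 and lie 43292 to 91663 bp from the nearest gene starts, those of Igfbp2, Gask1b, Npr3 and Zfp281.

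Promoter sites thus stood mostly at small openings, while distal sites ran over the whole range and were the majority in every class of opening. Of the members that opened by at most 0.2, 32.7% lay at a promoter. The share was 24% for openings of 0.2 to 0.3, 9.83% for 0.3 to 0.4, 4.25% for 0.4 to 0.5 and 3.47% above 0.5. The median concentration in the authors' deposited table was 10.52 in the lowest class and 9.83 to 10.02 in the others.

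RNA-seq of the same genotype was not used to choose the members, and it shows what the genes nearest to them did. The libraries held 27482996, 23267531 and 20771096 reads in Dox cells and 28734643, 24858356 and 16351891 reads in untreated cells. Mouse Yap1 had 4732, 4766 and 4896 normalised read counts in Dox cells, against 5134, 4945 and 5042 in untreated cells, and did not pass the test (limma, adjusted p = 0.070). Whether transcripts of the transgene align to mouse Yap1 is not stated in the labels, so this gene does not check them. All 12 markers fixed for periosteal and mesenchymal cells were expressed, with summed levels of 480148 to 492642 in Dox cells and 591965 to 613138 in untreated cells, and 2 of them rose while 6 fell. The summed markers of macrophages stood at 431.8 to 435.1 in Dox cells and 406.4 to 467.9 in untreated cells, and those of endothelial cells at 85.8 to 128.2 in Dox cells and 67.5 to 90.7 in untreated cells, with Fcgr1, Tyrobp and Cldn5 at 0 in every library. Osteoclast markers summed to 25.9 to 37.2 in Dox cells and 29.6 to 51.2 in untreated cells, and muscle markers to 985.0 to 1064 in Dox cells and 1054 to 1220 in untreated cells. The epithelial markers summed to 732.0 to 798.3 in Dox cells and 472.7 to 520.7 in untreated cells, where both tested members rose, and their part in the results was not tested. In bulk RNA, fewer cells of a type and less RNA per cell cannot be told apart.

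A gene was assigned to a member when its start was the nearest and lay within 50000 bp. This held for 2219 of the 3202 members and gave 1862 genes, of which 1848 were matched to the RNA table, 1644 averaged 10 or more normalised read counts over the 6 libraries and were tested, and 204 did not reach that level. The other 983 members lie farther from any start and were left without a gene. The test was limma on log2(normalised read count + 1), with p-values adjusted by Benjamini and Hochberg over all 13477 tested genes and called below 0.05.

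Genes near members rose more often than genes in general and fell about as often. Of the 1644 tested, 467 (28.4%) rose in Dox cells, against 14.3% of all tested genes, and 232 (14.1%) fell, against 13.5% of all tested genes. Their median log2 change was 0.04, against 0.00 over all tested genes, so the changes were small. A log2 change beyond 1 was reached by 9 of the rising and 3 of the falling genes, against 47 rising and 48 falling among all 13477 tested genes. The groups did not overlap for 887 of the 1644 tested genes near members, against 5525 of all 13477 tested genes (41%). This measure was not split by expression level. Genes near the 19615 less accessible sites that opened by at most 1 rose in 21.9% of 4745 tested genes and fell in 14.2%, and those near less accessible sites that opened by more than 1 rose in 27.5% of 961 and fell in 11%. At promoters the order of the first pair was turned, with 27.5% of 541 genes rising at members and 30.6% of 562 at less accessible sites that opened by at most 1. A high rising share was thus not limited to members. Genes near the 84 closing sites of 9.5 or more rose in 8.47% and fell in 52.5% of 59. A gene can stand near sites of more than 1 class and is then counted in each.

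Expression level moved with these shares, since a change is called more readily at a high count. The genes near members had a median of 1075 normalised read counts, against 558 for all tested genes. Within levels of 100 to 1000, 21.3% of the members' genes rose, against 11.6% of all tested genes at that level. Within 1000 to 10000 the shares were 36.9% of the members' genes and 24.5% of all, and above 10000 they were 38.6% and 24.2%. The falling shares at the same 3 levels were 14.8%, 14.5% and 15.8% of the members' genes, and 15%, 16% and 20.5% of all tested genes.

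The share of rising genes grew with the opening of the site. Nearest genes rose in 18.9% of 297 tested at openings of at most 0.2, in 28.8% of 862 at 0.2 to 0.3, in 32.3% of 406 at 0.3 to 0.4, and in 43.5% of both 161 at 0.4 to 0.5 and 138 above 0.5. The falling share was 15.8%, 14.2%, 14%, 10.6% and 8.7% in the same order. Promoter members showed the steeper course, with 15.1% of 126 genes rising at the lowest openings, 28.4% of 328, 33.8% of 68, then 8 of 13 and 8 of 9 at the highest. At the lowest openings as many promoter genes fell as rose, 19 of each. At distal members within 50000 bp the rising shares ran 21.9%, 29.2%, 31.8%, 40.6% and 46.2%. These are counts of genes, with no test between the classes.

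**Figure D4:**
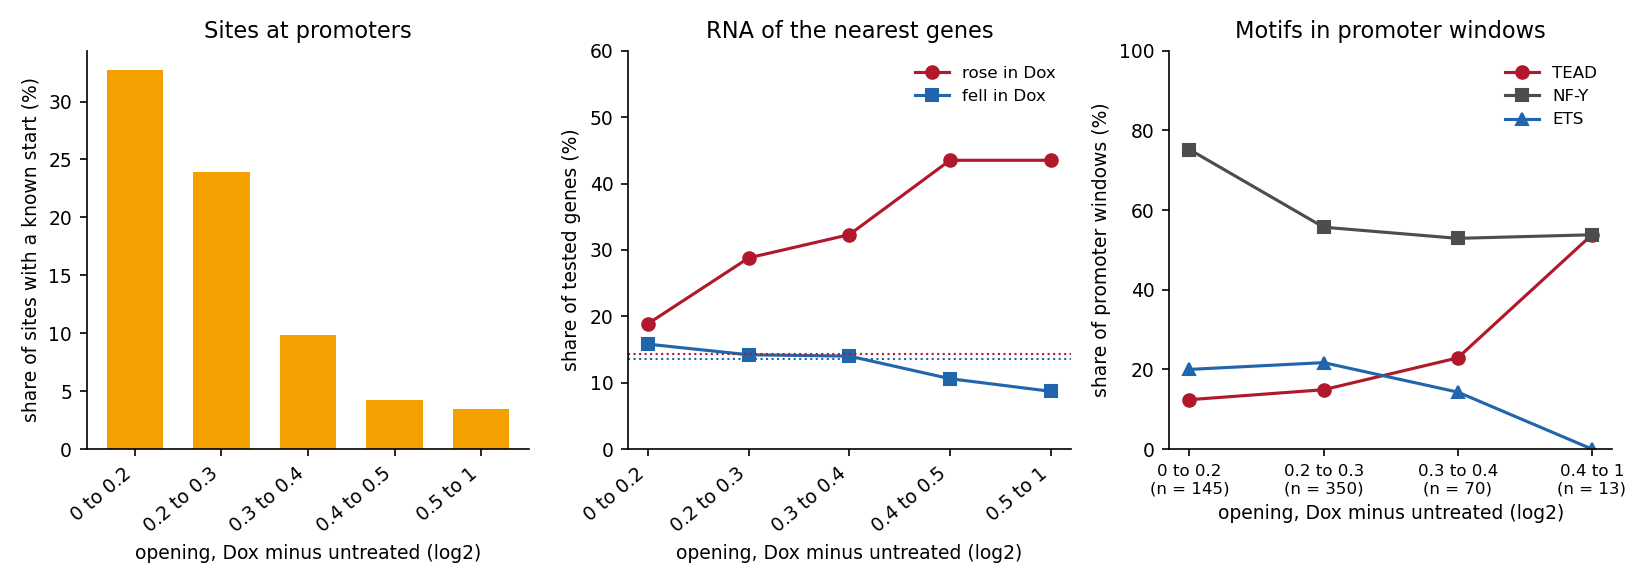
Members by size of opening (horizontal axes, log2): left, share at promoters; middle, share of tested nearest genes whose RNA rose or fell in Dox cells, with dotted lines at the shares of all tested genes, 14.3% rising and 13.5% falling; right, share of promoter windows with a TEAD, NF-Y or ETS match. The promoter share drops to 3.47% while the rising share reaches 43.5%.

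Genes with several members rose more often up to a point. With 1 member, 26% of 1389 tested genes rose, with 2 members 39.7% of 199, with 3 members 55.3% of 38 and with 4 or more 6 of 18. Amotl2, Ccn1, Fez2, Ier5, Parva and Phldb2 had 5 each, the most of any gene. Fez2 rose to 2569 ± 147 normalised read counts in Dox cells, against 1995 ± 94.8 in untreated cells (SD, n = 3 each, log2 change 0.36, limma adjusted p = 1.121e-05). Parva, which encodes the focal adhesion protein alpha-parvin, had 10669 ± 328 in Dox cells and 10431 ± 150 in untreated cells (SD, n = 3 each) and did not pass the test. Ier5, an immediate-early gene, did not pass either, with 1925 ± 33.3 in Dox cells and 1809 ± 50.01 in untreated cells (SD, n = 3 each).

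The rising share also differed with the letters of the promoter. With GGGCGG 28.1% of 388 tested genes rose, against 15.6% of 122 without it. Of the tested genes whose promoter at a member held CATTCC, 28 of 83 rose (33.7%), against 100 of 427 without it (23.4%). For TGANTCA the rising shares were 32.1% of 28 with it and 24.7% of 482 without it. For CCAAT the rising shares were 20.6% of 320 with it and 32.6% of 190 without it. For CCGGAAG they were 17.8% of 107 with it and 27% of 403 without it. The falling shares with and without the sequence were 11.1% and 13.1% for GGGCGG, and 13.3% and 11.2% for CATTCC. They were 14.3% and 11.4% for TGANTCA, 13.1% and 8.95% for CCAAT, and 6.54% and 12.9% for CCGGAAG. With CCGGAAG both the rising and the falling share were thus lower. These are counts of genes, with no test.

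YAP targets were the list most often near members. Of 30 genes on the list of YAP/TEAD targets, 19 (63.3%) were nearest to a member, against 58% of the actin and focal adhesion list, 48.7% of the matrix list, 44% of the Hippo list and 12.2% of all tested genes. Of these 19, 13 rose, none fell and 6 did not pass. Their median log2 change was 0.36. Of 25 Hippo components, 11 were nearest to a member, and 8 rose, none fell and 3 did not pass, with a median of 0.30. Among the tested genes not nearest to a member, 5 of 11 YAP/TEAD targets rose and 1 fell, and 7 of 14 Hippo components rose and 1 fell. The lists share genes such as Lats2, Tead1 and Amotl2. Both are made of genes known for this response, so the direction is no independent evidence.

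Among the secreted targets, Ccn2 had 69993, 68745 and 62697 normalised read counts in Dox cells, against 41523, 41901 and 33646 in untreated cells. All Dox samples stood above all untreated samples, with a log2 change of 0.79 ± 0.06 (SE, limma adjusted p = 9.9845e-08). Ccn1 had 37840, 38310 and 35573 normalised read counts in Dox cells, against 24937, 25819 and 22804 in untreated cells. The groups did not overlap, and the log2 change was 0.60 ± 0.04 (SE, limma adjusted p = 1.0648e-08). Of the 5 members of Ccn1, the one over the promoter printed above had a concentration of 10.62 in Dox cells and 10.37 in untreated cells, and the most distal one 11.22 in Dox cells and 10.91 in untreated cells, in the authors' deposited table. Edn1, the gene of the vasoconstrictor peptide endothelin-1, had 261.1, 257.4 and 227.1 normalised read counts in Dox cells, against 107.2, 112.0 and 105.5 in untreated cells. Its samples did not overlap either, at a log2 change of 1.19 ± 0.10 (SE, limma adjusted p = 1.8746e-07).

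Ankrd1 had 3952, 3626 and 3464 normalised read counts in Dox cells, against 2444, 2538 and 2222 in untreated cells. Every Dox sample was higher, with a log2 change of 0.62 ± 0.05 (SE, limma adjusted p = 1.2558e-07). Its promoter member had a concentration of 9.94 in Dox cells and 9.51 in untreated cells in the authors' deposited table, and a second member stood at 10.14 in Dox cells and 9.75 in untreated cells in that deposited table of the authors. Axl, which encodes a receptor tyrosine kinase, rose with a log2 change of 0.23, and Ajuba, which encodes a LIM protein that binds the LATS kinases, with 0.47. Of the targets that did not pass, Gadd45a, a DNA damage response gene, had a change of -0.22, Igfbp3, which encodes an IGF-binding protein, -0.15, and Nt5e, which encodes the surface enzyme CD73, 0.36.

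Among the kinases of the Hippo list only Lats2 was nearest to a member, along with genes of several proteins that restrain YAP. Lats2, the kinase that phosphorylates YAP, had 4757, 4803 and 4785 normalised read counts in Dox cells, against 2920, 2993 and 2907 in untreated cells. The groups lay far apart relative to their spread, at a log2 change of 0.70 ± 0.03 (SE, limma adjusted p = 1.1097e-10). Amotl2, which encodes an angiomotin that binds and retains YAP, had 22722, 23495 and 22679 normalised read counts in Dox cells, against 17741, 17210 and 16280 in untreated cells. All 3 Dox samples were higher, with a change of 0.43 ± 0.03 (SE, limma adjusted p = 2.9638e-08). Of the 5 members of Amotl2, the strongest had 11.59 in Dox cells and 10.96 in untreated cells and the one with the largest opening 11.1 in Dox cells and 10.37 in untreated cells, both in the authors' deposited table. Amotl1, of the same family, rose by 0.15 and Ptpn14, a phosphatase that binds YAP, by 0.14 on the log2 scale. Nf2, which encodes merlin, an upstream activator of the kinases, had a change of 0.08 and did not pass, although a member covers its start.

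Transcription partners followed the same course in part. Tead1 had 13771, 13411 and 13821 normalised read counts in Dox cells, against 10843, 10620 and 10616 in untreated cells. The groups were separate, with a log2 change of 0.35 ± 0.02 (SE, limma adjusted p = 2.5642e-08). Tead4 was much lower, at 389.5, 417.1 and 403.7 normalised read counts in Dox cells and 193.5, 247.2 and 233.6 in untreated cells. It rose by 0.85 ± 0.09 on the log2 scale (SE, limma adjusted p = 2.5642e-06). Vgll3, a TEAD cofactor of the Vestigial family, had 13660, 13642 and 13961 normalised read counts in Dox cells, against 9233, 8900 and 9071 in untreated cells. Its log2 change was 0.60 ± 0.03 (SE, limma adjusted p = 1.4423e-10), and its promoter member had 11.09 in Dox cells and 10.55 in untreated cells in the authors' deposited table. Vgll4, which competes with YAP for TEAD, rose by 0.30. Tead3 had a change of -0.08 and Wwtr1, which encodes the YAP paralogue TAZ, a change of 0.00, and neither passed.

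**Figure D5:**
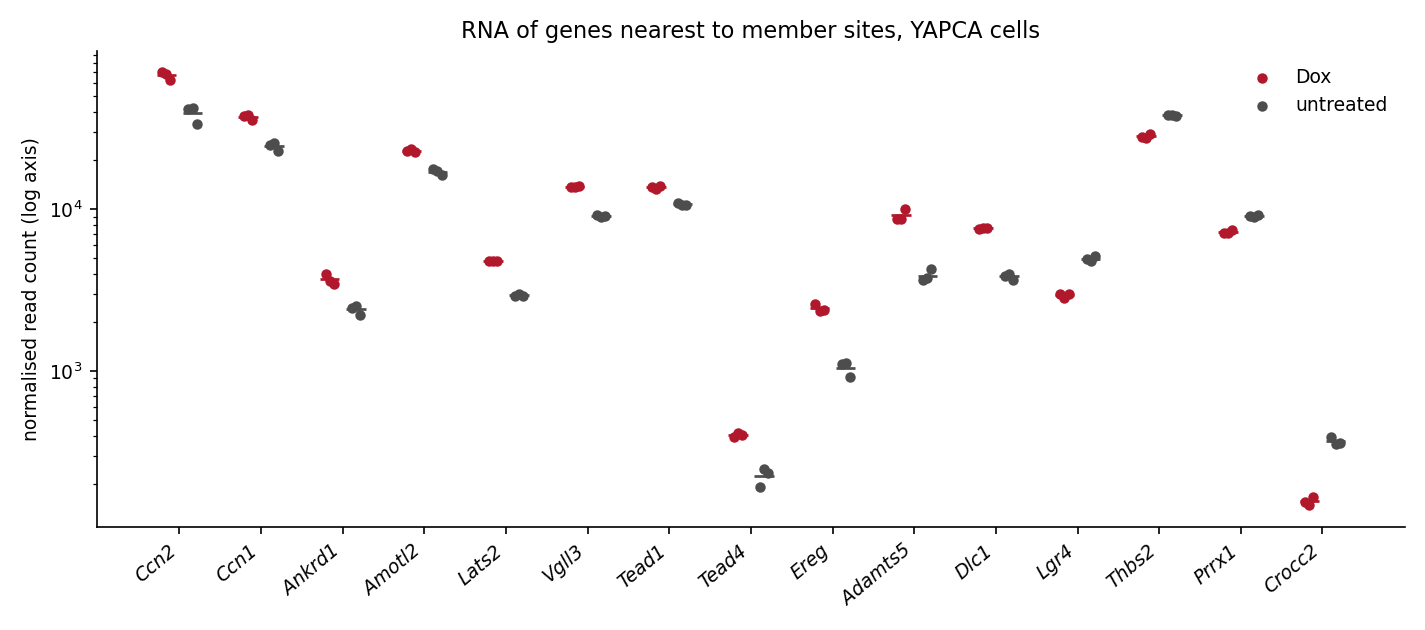
Normalised read counts (log axis) of 15 genes nearest to a member, with 3 Dox samples at the left and 3 untreated samples at the right of each pair and a line at each mean. In the first 11 genes every Dox sample is above every untreated sample, and in Lgr4, Thbs2, Prrx1 and Crocc2 every Dox sample is below.

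Genes of the actin cytoskeleton and focal adhesions, which carry the forces that regulate YAP, were also often near members. Of 50 on the list, 29 were nearest to a member, and 13 of these rose, 2 fell and 14 did not pass, with a median log2 change of 0.08. Dlc1, which encodes a GTPase-activating protein, had 7535, 7694 and 7622 normalised read counts in Dox cells, against 3882, 3996 and 3667 in untreated cells. The groups did not overlap, at a log2 change of 0.99 ± 0.03 (SE, limma adjusted p = 1.3073e-11). Arhgap29, another GTPase-activating protein, rose by 0.58, Zyx, which encodes the focal adhesion protein zyxin, by 0.45 and Tns3, a tensin, by 0.26 on the log2 scale. Itga5, the integrin alpha 5 chain, fell by 0.21, and Tpm2, a tropomyosin, fell by 0.14 on the log2 scale. The 20 other tested genes of the list, none of them nearest to a member, comprised 3 that rose and 9 that fell.

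Matrix genes near members were divided. Of 39 on the list, 19 were nearest to a member, with 6 that rose, 6 that fell and 7 that did not pass. Adamts5, which encodes an aggrecan-cleaving protease, had 8717, 8671 and 10062 normalised read counts in Dox cells, against 3677, 3734 and 4260 in untreated cells. All Dox samples were above all untreated samples, at a log2 change of 1.23 ± 0.06 (SE, limma adjusted p = 2.3514e-10), although its single member opened by only 0.24 in the authors' deposited table. Plau, the urokinase protease, rose by 0.72. Thbs2, which encodes the matricellular protein thrombospondin 2, had 27745, 27519 and 29234 normalised read counts in Dox cells, against 38278, 37929 and 37792 in untreated cells. It was lower in every Dox sample, at -0.43 ± 0.03 (SE, limma adjusted p = 6.2704e-09), with 3 members that opened by 0.21 to 0.31 in the authors' deposited table. Its paralogue Thbs1 rose by 0.39 with 3 members that opened by 0.19 to 0.49 in the deposited table of the authors. Among the fallers were Fbn1, the gene of fibrillin 1, at -0.25, Loxl1, a lysyl oxidase, at -0.28 and Mmp2, a gelatinase, at -0.23. The 18 other tested matrix genes, none nearest to a member, comprised 2 that rose and 12 that fell.

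Growth factor genes near members included those of the EGF receptor ligands epiregulin and HB-EGF. Of 39 genes on the list for growth factors and TGF-beta or BMP signalling, 14 were nearest to a member, and 6 rose, 4 fell and 4 did not pass. Of the 24 other tested genes of the list, 10 rose and 9 fell. Ereg, which encodes epiregulin, had 2594, 2341 and 2386 normalised read counts in Dox cells, against 1099, 1121 and 920.3 in untreated cells. No sample overlapped, and the log2 change was 1.22 ± 0.06 (SE, limma adjusted p = 8.149e-10) with members that opened by 0.20 and 0.22 in the authors' deposited table. Hbegf, the gene of heparin-binding EGF-like growth factor, rose by 0.88, and Csf1, the macrophage growth factor that osteoclasts need, by 0.50 with 4 members. Tgfbr3, the TGF-beta co-receptor betaglycan, fell by 0.38 and Smad3, which carries the TGF-beta signal to the nucleus, fell by 0.18, while Smad7, an inhibitor of that signal, rose by 0.25 on the log2 scale.

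AP-1 and other immediate-early factors had 8 of 25 members near a site, with 4 that rose, 3 that fell and 1 that did not pass. Of the 16 other tested genes of the list, 4 rose and 4 fell. Fos rose by 0.54 and Mafk, a small Maf protein, by 0.66, whereas Jun fell by 0.26 and Egr2, a zinc-finger factor, fell by 0.35 on the log2 scale. Of 26 osteoblast and skeletal progenitor genes, 3 were nearest to a member, a share close to the 12.2% of all tested genes, and all 3 fell, although the call of Twist2, a bHLH factor, was lost when any 1 of 3 libraries was left out. Of the 20 other tested genes of that list, 1 rose and 10 fell. Prrx1, a homeobox factor of limb and skeletal mesenchyme, had 7102, 7149 and 7423 normalised read counts in Dox cells, against 9089, 8952 and 9241 in untreated cells. All Dox samples were lower, at -0.33 ± 0.03 (SE, limma adjusted p = 1.3421e-07). Translation genes had 3 of 20 near a member, of which 1, Fbl, rose, a call lost with DESeq2 and when any 1 of 4 libraries was left out. RNA processing and chromatin genes had 2 of 30 near a member, of which Kdm6b, a histone H3K27 demethylase, fell by 0.55 on the log2 scale.

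Other genes with the largest rises were of varied function. They included Prrt4, with a log2 change of 1.44 at 154 ± 9.89 normalised read counts in Dox cells against 56.1 ± 4.73 in untreated cells (SD, n = 3 each), Mtmr10, a myotubularin-related gene, at 1.05, Snx30, a sorting nexin, at 1.02 and Rgs16, a regulator of G protein signalling, at 0.89. Each passed the test with limma adjusted p-values of at most 4.455e-07 and had no overlap between the groups.

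The largest falls near members included genes of varied function, each beside a site that opened by the way members were chosen. Crocc2, a gene related to the ciliary rootlet gene Crocc, had 155.5, 148.7 and 167.5 normalised read counts in Dox cells, against 389.5, 353.6 and 360.2 in untreated cells. Its 2 members opened by 0.34 and 0.49 in the authors' deposited table, and its RNA changed by -1.22 ± 0.08 (SE, limma adjusted p = 2.3766e-08). Lgr4, whose promoter is printed above, had 3008, 2838 and 2983 normalised read counts in Dox cells, against 4909, 4799 and 5163 in untreated cells. Its promoter site opened by 0.31 in the authors' deposited table while its RNA changed by -0.75 ± 0.03 (SE, limma adjusted p = 2.3514e-10). The others were Bcl3, a nuclear IkB protein, at -0.96, Tspan18, a tetraspanin, at -0.96, Rasl11a at -0.76, Ddit4l, an inhibitor of mTOR signalling, at -0.71, Fbxo32, the ubiquitin ligase atrogin-1, at -0.65, Mdm1 at -0.65, Gprin3 at -0.64 and Hbp1, an HMG-box repressor, at -0.63. For Rasl11a, Fbxo32, Mdm1 and Hbp1 the member lay 38017 to 46449 bp from the gene's start.

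The other printed promoters belonged to rising genes. Pim3 had 1025, 1061 and 911 normalised read counts in Dox cells, against 610, 500 and 531 in untreated cells, a log2 change of 0.87 ± 0.07 (SE, limma adjusted p = 1.5032e-07). Ptchd4 had 327, 303 and 333 in Dox cells, against 224, 226 and 166 in untreated cells, a log2 change of 0.66 ± 0.11 (SE, limma adjusted p = 0.00022717). Sp1, whose promoter was the most accessible member, had 2093, 2047 and 2104 in Dox cells, against 2342, 2266 and 2396 in untreated cells, and fell by 0.17 on the log2 scale (limma adjusted p = 0.001464).

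Wild-type cells, by their label, lack Cre and rtTA as well as the transgene, and they show what Dox did without all of them. Effects of Dox through rtTA and through the transgene cannot be told apart here. The authors' deposited table for wild-type ATAC-seq lists 42 sites, 36 opening and 6 closing, of which 26 had a concentration of 9.5 or more. Only 2 of the 42 overlapped a member by at least 1 base, and both closed in wild-type cells. The site at chr10:21785587-21786251, 95933 bp from the start of Sgk1, had 10.47 in Dox cells and 10.11 in untreated cells of YAPCA, against 10.2 in Dox cells and 10.45 in untreated cells of wild type, by the authors' deposited tables. The site at chr8:10928250-10929014, 79915 bp from the start of Irs2, had 10.69 in Dox cells and 10.46 in untreated cells of YAPCA, against 10.15 in Dox cells and 10.42 in untreated cells of wild type, by the authors' deposited tables. The 2 genotypes were normalised separately and the wild-type table lists only sites past its FDR limit, so the other 3200 members have no wild-type value here.

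For wild-type RNA, the authors' deposited table lists 98 genes, of which 19 are nearest to a member, 16 lower and 3 higher in Dox cells. Of these 19, 12 also passed in YAPCA cells, 9 with the opposite sign and 3 with the same sign. Thbs1 is an example, with a log2 change of 0.39 ± 0.03 (SE, limma) in YAPCA cells, against -0.13 in wild-type cells in the authors' deposited table. Lrp1, Slc38a2 and Itga5 were lower with Dox in both genotypes, by limma for YAPCA and by the authors' deposited table for wild type.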

How the data were processed

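Periosteal cells were profiled by ATAC-seq and RNA-seq. The members, gene lists and tests were chosen with earlier results of these data known. Peak calling and site testing used tools named in the submitters' processing notes, among them MACS2 and DiffBind for ATAC-seq and HISAT2, featureCounts and DESeq2 for RNA-seq, on mm10. Versions, settings, any transposase shift and any pooling for peak calls were not given in the sources used here.

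For each site the authors deposited the log2 concentration of either group, the log2 difference, a p-value and an FDR, which are DiffBind columns per the file headers; values of single ATAC samples were not used here. A second deposited sheet for chromosome 3 carries the group headings exchanged for all 1932 sites, 182 of them members, while the sheet for chromosome 1 has the order of the main sheet for all 2321; the main sheet was kept. The wild-type sites were deposited as other text of joined values, per the file headers. The RNA-seq signal per gene was deposited by the authors as read counts scaled by 1 factor a sample, and dividing by that factor gave whole reads within 0.01 for 100% of values. The test statistic (a score) in the authors' DESeq2 tables was not used. Columns of per-sample values without a sample numbered 0. A linear fold (ratio) in the authors' tables was not used. The wild-type RNA p-values and log2 changes are the authors' deposited DESeq2 values.

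RNA was tested with limma 3.58.1 in R 4.3.3 (intensity trend, two-sided, pseudocount 1, mean of at least 10, 13477 genes), which recovered 183 of 200 genes simulated at a fold of 2 or 0.5 in this comparison with 4 false calls. On this scale the change of a gene with few reads is understated. edgeR 4.0.16, DESeq2 1.42.0, TMM scaling, other pseudocounts, filters, limits and distances, a replicate block and leaving out each library were alternatives. Intervals of ATAC values need depths that these files do not give.

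Starts of protein-coding genes came from RefSeq promoter windows (GRCm38.p6), and for genes without one both ends of the gene were allowed when a site was assigned; shares at promoters use known starts only. No genome was used, so motifs were searched in these windows and not in whole sites, which departs from the plan. Named sites are those with the highest concentration, smallest FDR, largest and smallest opening, nearest to a limit, or near a YAP or Hippo gene; named genes are the 10 largest rises and 10 largest falls that passed near a member, averaged 100 or more normalised read counts and did not overlap, without predicted genes, and members of the lists. Fez2, Parva, Ier5, Yap1 and Sp1 were named after their values were seen. Pim3 and Ptchd4, whose promoters are printed, met none of these rules. A few of the genes so chosen are not reported here. Figures were drawn in Python 3.11.15.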

Additional observations from a re-analysis of the deposited data

Results flagged for a closer look

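The 7 genes given here are nearest to a member and had YAPCA samples that all moved up with Dox and wild-type samples that all moved down, with no overlap between groups in either genotype. The difference between the genotypes was not tested, because the 2 tables were normalised separately and the wild-type table holds only genes past its threshold. Their log2 changes in YAPCA cells (limma) were 0.17 for Tln1, which encodes talin, 0.15 for Itgav, the integrin alpha V chain, and 0.39 for Thbs1. Sptan1 and Sptbn1, the non-erythroid spectrin chains, had 0.21 and 0.29. Nrp1, a semaphorin and VEGF co-receptor, had 0.20, and Zc3h7a, a zinc-finger gene, 0.23. In the authors' deposited table for wild type these genes changed by -0.11 to -0.18, with Nrp1 at -0.11 and Zc3h7a at -0.18.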

How the results depend on the processing

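With 467 rising and 232 falling genes as the values to compare, DESeq2 gave 395 and 194, edgeR 466 and 238, and leaving out each library 384 to 447 and 186 to 236. The median log2 change of the nearest genes, 0.04, ran from 0.03 with starts within 200000 bp to 0.05 with starts within 10000 bp over all alternatives run. Counts moved with the choice of sites, which also changed the number of genes tested, and the shares moved less. The main shares were 28.4% rising and 14.1% falling of 1644 tested genes. Starts within 10000 bp gave 298 and 130 of 1020 (29.2% and 12.7%). Promoter sites gave 149 and 63 of 541 (27.5% and 11.6%). A concentration of at least 10 gave 281 and 138 of 976 (28.8% and 14.1%). The replicate numbers did not pair the samples, since deviations of same-numbered libraries correlated at -0.001, 0.036 and 0.085, and a replicate block gave 522 rising and 265 falling genes. Of 117 named or listed genes, the 80 that passed kept their sign under every setting run, and Fbl, Junb, Tpm4 and Twist2 lost the call under at least 1 setting. A concentration of at least 10 gave 1631 sites, 23.7% at promoters, a median width of 694 bp, a gap of 214661 bp and CCAAT in 64.2% of windows. A concentration limit lowered by 0.25 gave 15.7%, 617 bp and 74196 bp for promoter share, width and gap. An FDR under 0.001 gave 1499 sites, 7.03% at promoters, a gap of 249923 bp, 1 wild-type overlap, and TEAD, AP-1, NF-Y and ETS matches in 30.6%, 14.1%, 54.1% and 12.9% of windows. Promoters of 2000 bp either side gave 19.6%, and adding both ends of the other protein-coding genes, chosen after seeing the data, gave 20.6%. The longer TEAD sequence stood in 4.84% of windows. The causes of these moves were not tested. Motif searches over the central 150 bases and over whole sites were not run. The ATAC values have no spread between samples here, so the precision of an opening rests on the authors' FDR.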
